A study of Homo sapiens with 46 samples.

Results

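The ribosomal protein genes described here encode the protein subunits of the cytosolic ribosome. They were taken by gene name from the transcript tables of 4 cell types, with names of the form RPL or RPS and a number, RPLP0, RPLP1, RPLP2 and RPSA. All rows of 1 Ensembl gene were summed. The rule gave 78 genes, 47 of the large and 31 of the small ribosomal subunit, out of 21166 Ensembl genes in the tables, and all 78 were present in each cell type and were tested in every comparison. FAU, whose product is cut into a ubiquitin-like part and a ribosomal protein, has another name and was not among them.

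A ribosome holds a copy of nearly every one of these proteins, bound to ribosomal RNA in a large subunit, which forms peptide bonds, and a small subunit, which decodes the mRNA. Their mRNAs are short, abundant and stable, and many begin with a run of pyrimidines, the terminal oligopyrimidine or TOP motif, through which their translation follows nutrient and growth signals. Nearly all of the proteins are made in the cytoplasm and carried back into the nucleus for assembly, so the mature mRNA works in the cytoplasm while the nucleus holds newly made copies. Pluripotent stem cells are known for active ribosome assembly.

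The cells were H1, an established human pluripotent stem cell line (hPSC) kept in mTeSR1 on Matrigel, and its in vitro germ layer derivatives, namely ectoderm, endoderm and mesoderm, collected after 5 days. Per the labels, endoderm was made with WNT3A and Activin A in RPMI medium, mesoderm with VEGF, BMP4 and bFGF after a first day that also held Activin A, and ectoderm with the inhibitors A83-01, PNU-74654 and Dorsomorphin in medium with KOSR. Each cell type was split into cytoplasm, nucleus, nucleoplasm and chromatin, with the transcription inhibitor α-amanitin in the buffers of all groups. There were 46 libraries in 16 groups, 3 in each except mesoderm nucleoplasm, which had 1. Nothing in the labels says that repeats came from separate cultures, so p-values measure only the spread between these libraries. All cells came from 1 line, so differences between donors cannot be seen.

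The start sites show what most of these genes share beyond their names. The 28 bases below run from 8 bases before the annotated start to 20 bases from it, with the pyrimidine run that begins with a C at the start in capitals. They come from the RefSeq promoter table on GRCh38.p14, which held 63 of the 78 genes. For a gene with several promoters, the one with the longest run was taken. They are shown because results below name these genes. The first 4 have a run of 5 or more and the last 4 do not, and the choice gives no order by run. RPL36AL, without such a run, ranked 5, 3, 3 and 38 of 78 by its log2 change between cytoplasm and nucleus in hPSC, ectoderm, endoderm and mesoderm. RPL7A, with one and not printed below, ranked 67, 69, 69 and 73. Other genes went the other way. RPS12, with a run, ranked 1, 17, 7 and 4, and RPL4, without one, ranked 78, 65, 73 and 76.
RPS12: gatgaggcCTCTTTCCCTgccgccgccg
RPS24: tcgtggttCTCTTTTCCTCCTTggctgt
RPL36A: cgcggtttCTTTCTTTCCgcgccgatag
RPL39: gccagcttCCCTCCTCTTCCTTTCTCCg
RPL4: ggagtggtaagcacttccttttcctgtg
RPL6: cggcgcgtgcactgtgttcctggtcctg
RPL36AL: ttccctttCCTgttaggcgagagctgcg
RPS26: ataacctcgattttcttccgccatccgg

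These windows lie at chr6:132814561-132814588 on the plus strand, chr10:78033855-78033882 on the plus strand, chrX:101391003-101391030 on the plus strand, chrX:119791611-119791638 on the minus strand, chr15:66504836-66504863 on the minus strand, chr12:112409266-112409293 on the minus strand, chr14:49620607-49620634 on the minus strand and chr12:56041910-56041937 on the plus strand, in the order printed. A start with C followed by at least 4 more pyrimidines, read on the gene's own strand, was found in 73.0% of the 63 genes (46 genes). That share takes the promoter with the longest run for each gene. Counted per promoter, the run was found in 59.0% of the 78 promoters of these 63 genes. In the table as a whole it was found in 4.07% of 35116 promoters. The share was 71.8% for the 39 large subunit genes and 75.0% for the 24 small subunit genes with an entry. A missing run says only that these letters do not stand at this annotated start. The median log2 change between cytoplasm and nucleus was 1.76 with the run and 1.60 over members without it in hPSC. In mesoderm the same medians were 3.15 and 2.83. In endoderm they were 1.03 and 1.12, and in ectoderm -0.22 and -0.20, the reverse order.

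Library totals ran from 4990408 to 21298678 counts. Fraction controls did not all follow the labels. MALAT1, a nuclear RNA, had a mean of 26.6 TPM (a share of the library corrected for transcript length) in hPSC cytoplasm and 13.0 in hPSC nucleus, and 268 and 30.6 in ectoderm. In mesoderm it had 49.5 in cytoplasm and 214 in nucleus. In endoderm the means were 19.1 and 25.6, with overlapping libraries. Its nucleoplasm mean was above its cytoplasm mean in all 4 cell types. SNHG14, another nuclear control, had means of 188 TPM in nucleus and 111 in cytoplasm in hPSC, and 357 and 84.2 in mesoderm. The order was the reverse in ectoderm (18.1 and 46.8) and in endoderm (44.9 and 88.8). NEAT1 and KCNQ1OT1, also nuclear controls, had low TPM in most groups. Mitochondrially encoded RNA took 13.9% ± 1.26 (SD, n = 3) of the counts in hPSC nucleus and 0.515% ± 0.109 (SD, n = 3) in its cytoplasm, and had the same order in ectoderm and endoderm. In mesoderm it took 1.26% ± 0.133 (SD, n = 3) in the nucleus and 6.79% ± 0.848 (SD, n = 3) in the cytoplasm. Cytoplasm means of PAX6, LHX2 and SIX3 were highest in ectoderm, of SOX17 and FOXA2 in endoderm, and of HAND1 and HAPLN1 in mesoderm. HAND1 was also at 43.1 TPM in endoderm cytoplasm against 102 in mesoderm. The mesoderm marker MIXL1 had 9.79 TPM or more in each endoderm cytoplasm library and was listed at 0 in those of mesoderm, and TBXT had means of 2.64 and 0.0767. SOX1 and MESP1 were listed at 0 in every group, and POU5F1, a pluripotency gene, was still at 1655 TPM in endoderm cytoplasm and 890.1 in mesoderm cytoplasm against 2540.0 in hPSC cytoplasm.

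Ribosomal protein mRNA was a large part of each cytoplasm and a small part of most nuclear fractions. The 78 genes took 13.4% ± 4.44 (SD, n = 3) of all counts in hPSC cytoplasm, 13.0% ± 1.56 (SD, n = 3) in ectoderm, 9.10% ± 0.698 (SD, n = 3) in endoderm and 12.3% ± 1.17 (SD, n = 3) in mesoderm cytoplasm. In the nucleus they took 4.33% ± 0.816 (SD, n = 3) in hPSC, 11.8% ± 2.41 (SD, n = 3) in ectoderm, 2.56% ± 0.189 (SD, n = 3) in endoderm and 1.85% ± 0.369 (SD, n = 3) in mesoderm. Ectoderm was the cell type in which the nucleus and cytoplasm libraries overlapped.

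The hPSC cytoplasm libraries were at 18.5, 11.3 and 10.3%, so replicate 1 stood apart, and it also had the lowest total of the hPSC libraries (8329295 counts). The ectoderm nucleus libraries were at 9.96, 14.5 and 10.9%, with replicate 2 the highest. Ectoderm nucleoplasm (5.55% ± 0.0960 (SD, n = 3)) and chromatin (3.85% ± 0.194 (SD, n = 3)), which come from the same nuclear pellet, both lay below the lowest ectoderm nucleus library. In these bulk libraries fewer cells of a type and less RNA per cell cannot be told apart.

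**Figure D1:**
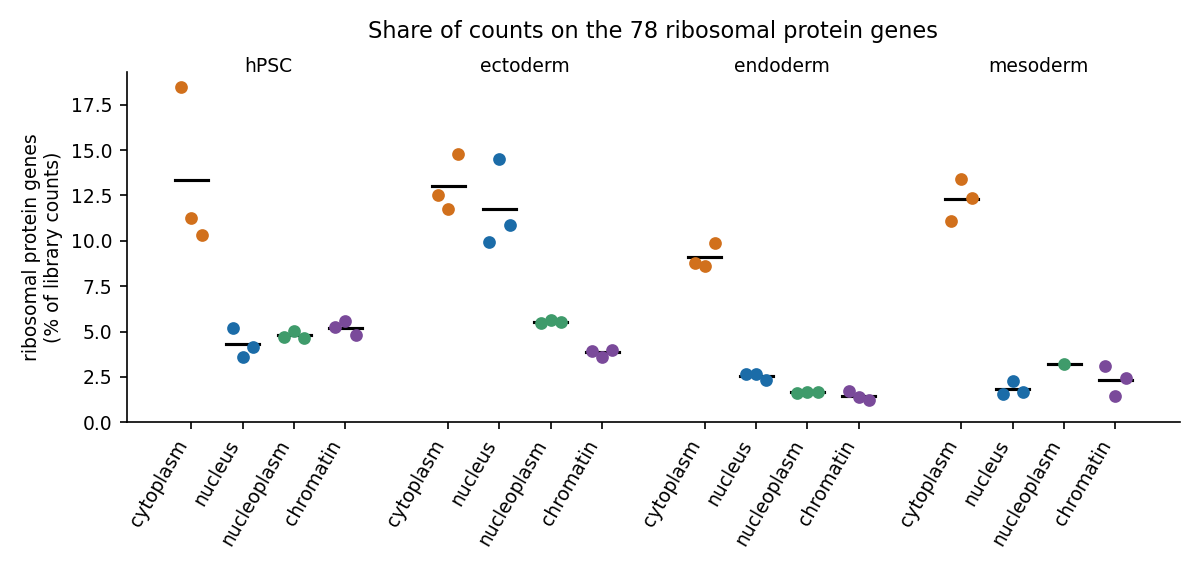
Percent of library counts on the 78 ribosomal protein genes (y axis) by cell type and fraction (x axis); each point is 1 library and each bar a group mean. Cytoplasm stands above the nuclear fractions in hPSC, endoderm and mesoderm, while the ectoderm nucleus libraries lie between 9.96% and 14.5%, overlapping those of its cytoplasm, which start at 11.7%.

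Levels per length differed widely among the members. Over the 46 libraries the highest median TPM was that of RPS27, 6509, followed by RPS29 with 5212 and RPS18 with 4274, all of the small subunit. The lowest were RPL14 with 159, RPL36AL with 171 and RPS28 with 227. The ranges over libraries were wide, so that RPS27 ran from 1280.2 to 30026 TPM and RPL14 from 29.9 to 2291 and the ends of the order overlapped. The order of neighbours is therefore within their spread. TPM depends on the lengths of the assembled transcripts. A member had between 1 and 10 of them in the assembly of a cell type, and up to 15 in the combined assembly (median 2 over both kinds).

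In hPSC, all 78 genes were called higher in cytoplasm than in nucleus, where 35.6% of the 13987 genes tested were called higher, 30.1% lower and 65.7% were called in either direction. A gene was called at an adjusted p under 0.05 in edgeR's quasi-likelihood test with Benjamini-Hochberg adjustment over all genes tested. The median log2 change was 1.70 over the members and 0.11 over all genes tested, and the members ran from 0.40 to 2.89. The highest was RPS12, a small subunit protein, at 3237, 1600.1 and 1321 scaled CPM (counts over the library total, corrected by TMM factors) in cytoplasm and 346, 228 and 257 in nucleus. Its libraries did not overlap, and the log2 change was 2.89 (SE 0.30, adjusted p = 1.92e-06). RPS27 changed by 2.65 (SE 0.43, adjusted p = 0.000105), with 2478, 892 and 618 scaled CPM in cytoplasm and 208, 196 and 229 in nucleus. In both genes every cytoplasm library lay above every nucleus library, and replicate 1 of the cytoplasm was the highest by far. RPL36A changed by 2.51 (SE 0.37, adjusted p = 4.91e-05).

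The genes of the large subunit that lay lowest in hPSC, named after their values were seen, were RPL4, RPL6 and RPL5. RPL4, which lines part of the tunnel through which the new peptide leaves, was at 3296, 2972 and 2731 scaled CPM in cytoplasm and 2549.6, 2138 and 2115 in nucleus, a log2 change of 0.40 (SE 0.12, adjusted p = 0.0112). RPL5, which binds the small ribosomal RNA of the large subunit together with RPL11, changed by 0.88 (SE 0.16, adjusted p = 0.000282), and RPL6 by 0.87 (SE 0.19, adjusted p = 0.00106). RPL11, the partner of RPL5, changed by 2.50 (SE 0.29, adjusted p = 5.29e-06). Without replicate 1 of the hPSC cytoplasm, 76 genes were called higher and the median fell to 1.20.

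Mesoderm also had all 78 genes called higher in cytoplasm, against 32.1% of all genes called higher and 63.4% called. The median of the members was 3.13 and that of all genes was 0.00043. The 3 largest rises were in RPS29, RPL39 and RPS27, all very short proteins. RPS29 had 140.1, 838 and 222 scaled CPM in cytoplasm and 20.2, 16.7 and 17.4 in nucleus, so the cytoplasm libraries differed widely among themselves, with replicate 2 highest, and the log2 change was 4.46 (SE 0.62, adjusted p = 8.9e-05). RPL39 changed by 3.99 (SE 0.41, adjusted p = 9.65e-06) and RPS27 by 3.89 (SE 0.43, adjusted p = 1.61e-05). The lowest were again RPL6 at 1.20 (SE 0.28, adjusted p = 0.00318), RPL5 at 1.48 (SE 0.28, adjusted p = 0.000777) and RPL4 at 1.72 (SE 0.25, adjusted p = 0.000115).

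In endoderm, 73 genes were called higher in cytoplasm and none lower, against 34.4% of all genes called higher and 69.9% called. Their median was 1.12, with 0.01 over all genes. RPL7, a large subunit protein, led with 1284, 1342 and 1311 scaled CPM in cytoplasm and 107, 188 and 156 in nucleus, a log2 change of 3.12 (SE 0.25, adjusted p = 4.18e-08). RPS24, one of the genes mutated in Diamond-Blackfan anaemia, followed at 2.73 (SE 0.24, adjusted p = 1.21e-07) and RPL36AL at 2.59 (SE 0.18, adjusted p = 1.17e-08). Of the 5 genes not called, RPS21, named after its value was seen, was the only one with a value below 0, -0.18 (SE 0.32, adjusted p = 0.638).

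In ectoderm 8 genes were called higher and 8 lower in cytoplasm, against 53.5% of all genes called, 28.8% higher and 24.8% lower, and the member median of -0.20 lay near the 0.033 of all genes. The genes called higher included RPS24, RPL7 and RPL36AL, the same 3 that led in endoderm. RPS24 had 1083, 1100.3 and 1473 scaled CPM in cytoplasm and 437, 571 and 508 in nucleus, with no overlap, and changed by 1.27 (SE 0.15, adjusted p = 1.71e-05). RPL7 changed by 1.20 (SE 0.15, adjusted p = 2.13e-05) and RPL36AL by 1.01 (SE 0.16, adjusted p = 0.00015). The largest fall was in RPLP0, the protein that anchors the stalk of the large subunit, with 4027, 4652 and 4249.6 scaled CPM in cytoplasm and 5131, 9939.9 and 5730.1 in nucleus and a log2 change of -0.69 (SE 0.21, adjusted p = 0.0132). Replicate 2 of the nucleus was far above the other libraries of RPLP0, whose groups did not overlap. RPL15 changed by -0.57 (SE 0.20, adjusted p = 0.0263) and RPS2 by -0.52 (SE 0.20, adjusted p = 0.0391).

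The ectoderm calls of lower members rested on single libraries and on the scaling. The count of higher members also changed, but was 6 or more in each fit given here. Without replicate 2 of the ectoderm nucleus, 23 members were called higher and 1 lower, and the median was 0.22. Without nucleus replicate 1, 7 were called higher and 29 lower. Without cytoplasm replicate 1, 2 or 3 the calls were 8 higher and 0 lower, 8 and 1, and 6 and 4. Scaled by total counts alone, 27 were called higher and 0 lower, and DESeq2 called 8 higher and 18 lower. The median of all genes shifted by 0.35 with total counts. RPL15 and RPS2 lost their calls without nucleus replicate 2 (-0.20 and -0.16) and without any 1 of the 3 cytoplasm libraries, and RPLP0 without cytoplasm replicate 1 (-0.64, adjusted p = 0.0513 in edgeR). GAPDH, a cytoplasmic control mRNA, was at 3739.7 TPM in ectoderm cytoplasm and 3918 in its nucleus, while in endoderm it was at 5087 and 2094. The part of fraction purity in the member values was not tested.

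**Figure D2:**
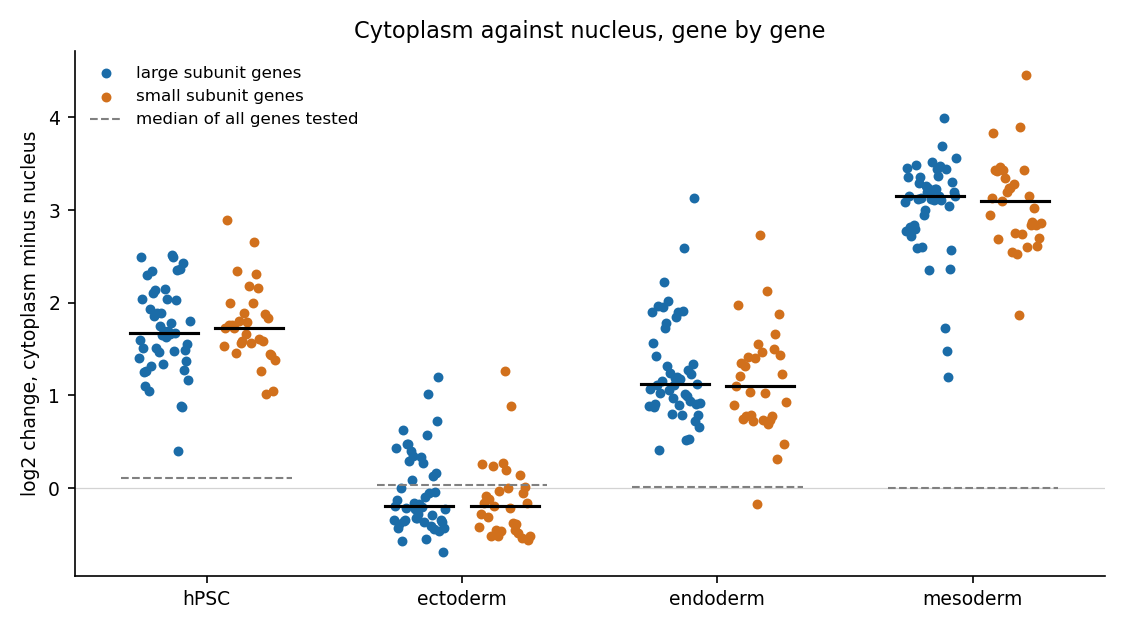
Fitted log2 change between cytoplasm and nucleus (y axis) for each of the 78 ribosomal protein genes in 4 cell types (x axis); each point is 1 gene, black bars are medians of the 47 large and 31 small subunit genes, and dashed lines are medians of all genes tested. Large and small subunit genes lie close together in every cell type, with medians of 3.15 and 3.10 in mesoderm and -0.20 and -0.19 in ectoderm.

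The difference between cytoplasm and nucleus was then compared between cell types in 1 model over the cytoplasm and nucleus libraries. In ectoderm 75 members had a lower difference than in hPSC and none a higher one, against 51.9% of 10681 genes called, 24.6% lower, with a member median of -1.66. RPS27 at -2.67 (SE 0.62, adjusted p = 0.00126), RPS12 at -2.44 (SE 0.36, adjusted p = 1.94e-05) and RPS28 at -2.35 (SE 0.51, adjusted p = 0.000676) fell most. In mesoderm 62 members had a higher difference and none a lower one, against 25.6% called, 18.7% higher and 6.88% lower, with a median of 1.47. RPS29 at 2.94 (SE 0.76, adjusted p = 0.00735), RPL37 at 2.08 (SE 0.46, adjusted p = 0.00244) and RPLP1 at 2.07 (SE 0.38, adjusted p = 0.000591) rose most. With limma on log2 TPM, 39 were higher and 1 lower in mesoderm, and RPL37 was not called (0.77, adjusted p = 0.137 in limma). The order of mitochondrial RNA between the fractions was also the opposite in mesoderm, as given above, and its part in the member values was not tested.

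In endoderm 1 member was higher and 4 were lower, 5 of 78 against 38% of all genes called, 19.7% higher and 18.3% lower. RPS21 at -1.73 (SE 0.56, adjusted p = 0.0201), RPS28 at -1.36 (SE 0.51, adjusted p = 0.0388) and RPL41 at -1.32 (SE 0.49, adjusted p = 0.0396) were among the lower ones, and RPL7 at 0.77 (SE 0.28, adjusted p = 0.0359) was the higher one. The direction was not stable. With total counts 7 members were called higher and 0 lower, while the median of all genes moved by 0.51, and without replicate 1 of the hPSC cytoplasm 4 were higher and 0 lower. The log2 TPM scale gave 17 higher and 0 lower, DESeq2 called 1 higher and 8 lower, and the fit with replicate number as a block 1 and 2. Leaving out any 1 library gave between 1 (without endoderm cytoplasm replicate 2) and 10 called members (without hPSC cytoplasm replicate 3). RPS21 lost its call without hPSC cytoplasm replicate 1 (-0.95), as did RPS28 (-0.80) and RPL41 (-0.80), and RPL7 without endoderm nucleus replicate 1 (0.55). All 3 comparisons share the hPSC libraries.

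Within the nucleus, chromatin-bound RNA was set against nucleoplasm. In ectoderm 70 of 78 genes were lower on chromatin and none higher, against 43.3% of all genes called, 21.8% lower, and the member median was -0.77 with -0.021 over all genes. In endoderm 64 were lower and none higher, against 53.7% called, 30.7% lower, with medians of -0.86 and -0.12. With total counts the endoderm result was 6 higher and 23 lower, as the median of all genes moved by 0.62. In hPSC 3 genes were higher and 5 lower, against 30.7% called, with medians of -0.24 and -0.0054, and without nucleoplasm replicate 2 the counts were 3 and 2. On the log2 TPM scale, tested with limma, 27 were higher and 0 lower in hPSC, 0 and 6 in ectoderm, and 2 and 24 in endoderm.

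RPL36AL had the lowest value of all members on chromatin in each of the 3 cell types. This gene on chromosome 14 encodes a protein almost identical to that of RPL36A on the X chromosome, and reads that fit both could have been split between them. Its ectoderm values were 12.6, 15.8 and 12.4 scaled CPM on chromatin and 35.1, 40.8 and 37.8 in nucleoplasm, without overlap. The log2 change was -1.47 (SE 0.17, adjusted p = 2.31e-05) in ectoderm, -2.08 (SE 0.19, adjusted p = 3.39e-07) in endoderm and -1.17 (SE 0.32, adjusted p = 0.0154) in hPSC. RPL23A followed in ectoderm at -1.43 (SE 0.16, adjusted p = 2.02e-05), and in endoderm RPS21 at -1.71 (SE 0.33, adjusted p = 0.000505) and RPL23A at -1.59 (SE 0.19, adjusted p = 6.15e-06). RPL7 fell by 1.39 on the log2 scale in ectoderm and by 0.88 in hPSC, where RPL22 fell by 0.88. The hPSC calls of RPL36AL, RPL22 and RPL7 were lost without nucleoplasm replicate 2 (-1.08, -0.80 and -0.88).

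The genes higher on hPSC chromatin were RPL6, RPL5 and RPL4, the same 3 large subunit genes that had the lowest cytoplasm values in hPSC. The 2 comparisons use different libraries of 1 cell type. RPL6 was at 2171, 1916 and 1435 scaled CPM on chromatin and 947, 1011 and 951 in nucleoplasm, a log2 change of 0.92 (SE 0.19, adjusted p = 0.00322). RPL4 was at 2928, 2722 and 3168 on chromatin and 1891, 1753 and 1887 in nucleoplasm, and changed by 0.67 (SE 0.12, adjusted p = 0.00179), and RPL5 changed by 0.71 (SE 0.16, adjusted p = 0.00539). In endoderm their values were -0.059 for RPL6, -0.25 for RPL5 and -0.12 for RPL4, none of them called. In ectoderm all 3 were lower on chromatin. They are among the 21 members with the longest coding regions, whose highest ectoderm value was -0.42. Many of these genes hold small nucleolar RNA genes, which guide ribosomal RNA modification, and in the GENCODE 29 annotation RPL4 held 5, RPL5 2 and RPL6 0. Over the 28 members with such a gene in their body, the hPSC median was -0.15, and over the other 50 it was -0.27.

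Against hPSC cytoplasm, endoderm cytoplasm had less of almost every ribosomal protein mRNA. There 74 of 78 genes were lower and none higher, against 58.1% of 10673 genes called, 28.6% lower, with medians of -0.82 over members and -7.8e-05 over all genes. The lowest were the short small subunit genes RPS21 at -1.76 (SE 0.44, adjusted p = 0.00305) and RPS27 at -1.75 (SE 0.46, adjusted p = 0.00501), and RPL41, whose protein is the shortest of the ribosome, at -1.57 (SE 0.36, adjusted p = 0.00195). RPL41 was at 565, 518 and 791 scaled CPM in endoderm and 2973, 1495 and 1099 in hPSC. Replicate 1 of hPSC was again the highest, and the groups did not overlap. Tested on log2 TPM, 4 members were higher and 26 lower. Without replicate 1 of hPSC 61 members were lower and none higher, and the median was -0.49.

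In ectoderm cytoplasm 3 genes were higher and 10 lower than in hPSC, and in mesoderm 1 was higher and 8 lower. These 13 and 9 calls stand against 76% and 68.1% of all genes called, 38% higher and 37.9% lower in ectoderm and 34.6% and 33.4% in mesoderm. Without replicate 1 of hPSC, 17 were higher and 4 lower in ectoderm, and 8 and 4 in mesoderm, so that the majority turned round. Without replicate 3 of hPSC the counts were 2 higher and 23 lower, and 0 and 24, and without replicate 1 of the ectoderm cytoplasm 2 and 5. RPL6 at 0.65 (SE 0.17, adjusted p = 0.00243) and RPL4 at 0.45 (SE 0.12, adjusted p = 0.00277) rose in ectoderm, and RPL4 at 0.35 (SE 0.12, adjusted p = 0.015) was the gene that rose in mesoderm. RPL4 lost its call in mesoderm without hPSC replicate 2 or 3 or without mesoderm replicate 3 (adjusted p up to 0.0797). The test on log2 TPM gave 15 higher and 11 lower in ectoderm, and 9 and 6 in mesoderm. The 3 comparisons with hPSC share its cytoplasm libraries.

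RPS26 had the lowest value of all members in ectoderm and mesoderm cytoplasm. Its protein sits at the exit of the mRNA channel of the small subunit, and its gene lies at chr12:56041351-56044697 on the plus strand (GRCh38, GENCODE 29). The cytoplasm libraries held 776, 345 and 331 scaled CPM in hPSC, 235, 237 and 304 in endoderm, 111, 114 and 132 in mesoderm and 93.7, 98.6 and 99.8 in ectoderm. No ectoderm or mesoderm library reached the lowest hPSC or endoderm library. The log2 change was -2.31 (SE 0.25, adjusted p = 8.01e-07) in ectoderm and -2.02 (SE 0.25, adjusted p = 5e-06) in mesoderm, where the member medians were -0.16 and -0.19. In endoderm it was -0.90 (SE 0.24, adjusted p = 0.00542). Without replicate 1 of hPSC the ectoderm and mesoderm values were -1.81 and -1.55, both still called.

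Rows named as RPS26 pseudogenes held counts in ectoderm, and the origin of those reads was not tested. The hPSC assembly held RPS26P45 alone, and the ectoderm assembly also RPS26P11 and RPS26P19, so their shares do not cover the same rows. They had 31.9% to 37.8% of the joint counts in ectoderm cytoplasm and 58.5% to 61.7% on its chromatin, and at most 0.0688% in hPSC cytoplasm and chromatin. With those rows added to RPS26, an alternative chosen after seeing the data, the ectoderm cytoplasm value was -1.70 (adjusted p = 1.23e-05 in edgeR), and the mesoderm value -2.05. On ectoderm chromatin RPS26 changed by -1.90 (SE 0.28, adjusted p = 4e-05) against hPSC chromatin, and with the pseudogene rows by -0.57, which was not called (adjusted p = 0.0663). Its chromatin libraries held 28.6, 29.6 and 31.6 scaled CPM in ectoderm and 108, 112 and 115 in hPSC.

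**Figure D3:**
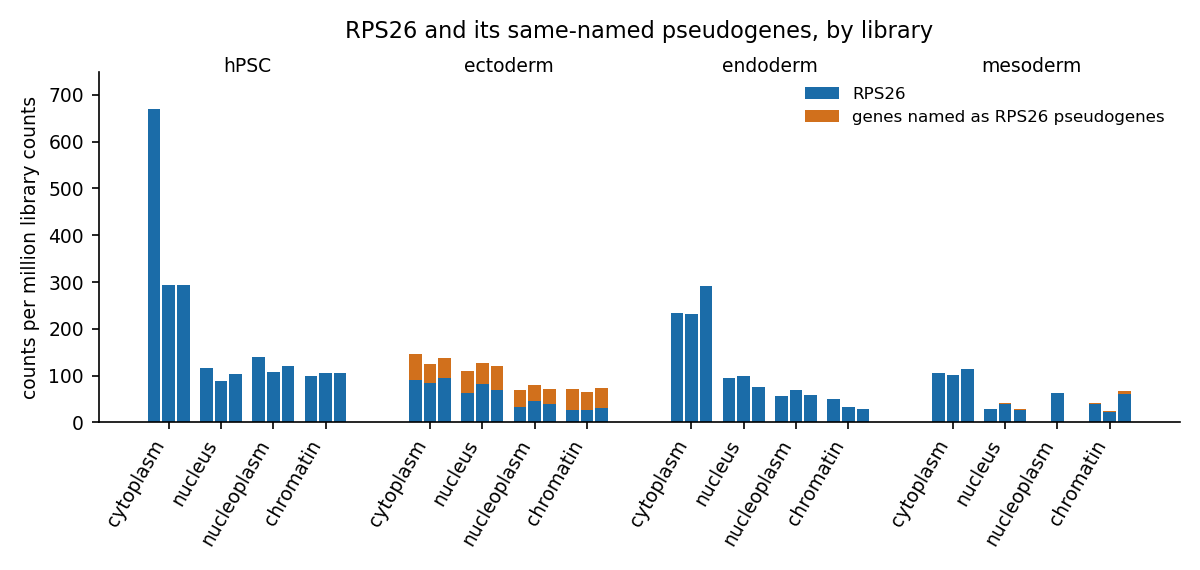
CPM, here unscaled (y axis), on RPS26 (blue) and on genes named as its pseudogenes (orange, stacked) in each library, by cell type and fraction (x axis); each bar is 1 library. The RPS26 bars of ectoderm and mesoderm cytoplasm are lower than those of hPSC and endoderm cytoplasm. The pseudogene part is large in ectoderm, 31.9% to 37.8% of the joint counts in its cytoplasm. The pseudogenes present differ between the assemblies of the cell types.

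Other members also had counts on rows named as their pseudogenes. Of the 78 genes, 59 had less than 5% of the joint counts on such rows in every library, and 5 exceeded 25% in some library, namely RPS26, RPL41, RPL23A, RPS28 and RPL39. For RPS28 the share was 38.4% to 41.2% in hPSC cytoplasm and 22.2% to 39.8% in ectoderm cytoplasm. For RPL41 the share was 39.9% or more in endoderm cytoplasm and 1.57% to 2.93% in hPSC cytoplasm. Those shares cover different rows, since RPL41P1 was in the ectoderm and endoderm assemblies and not in those of hPSC and mesoderm. The fall of RPL41 in endoderm is therefore uncertain in size. With the rows added it was -0.86 (adjusted p = 0.0344 in edgeR). The counts of members called stayed within 1.5 times of those given in all 16 comparisons when these rows were added.

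Short ribosomal protein genes fell more than long ones in endoderm cytoplasm. Across the 78 members, whose coding regions run from 75 to 1281 bases, the Spearman correlation of coding length with the log2 change against hPSC was 0.88 and Pearson's r was 0.81. It was 0.17 over 4416 other genes in the same length range. This is a description over genes that share the same 6 libraries with their depth and scaling, and it was 0.45 on the log2 TPM scale. The 20 shortest members had a median of -1.09 and the 21 longest a median of -0.58. The correlation was 0.34 in ectoderm and 0.51 in mesoderm. Without replicate 1 of hPSC the 3 correlations were 0.67 in endoderm, -0.071 in ectoderm and 0.063 in mesoderm. Between cytoplasm and nucleus the correlation was -0.53 in hPSC, -0.55 in mesoderm, -0.20 in ectoderm and -0.012 in endoderm, and in the same order -0.34, -0.44, -0.13 and -0.20 over the other genes of that length range. Without cytoplasm replicate 1 the hPSC value for members was -0.25, and without cytoplasm replicate 3 the ectoderm value was 0.025.

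**Figure D4:**
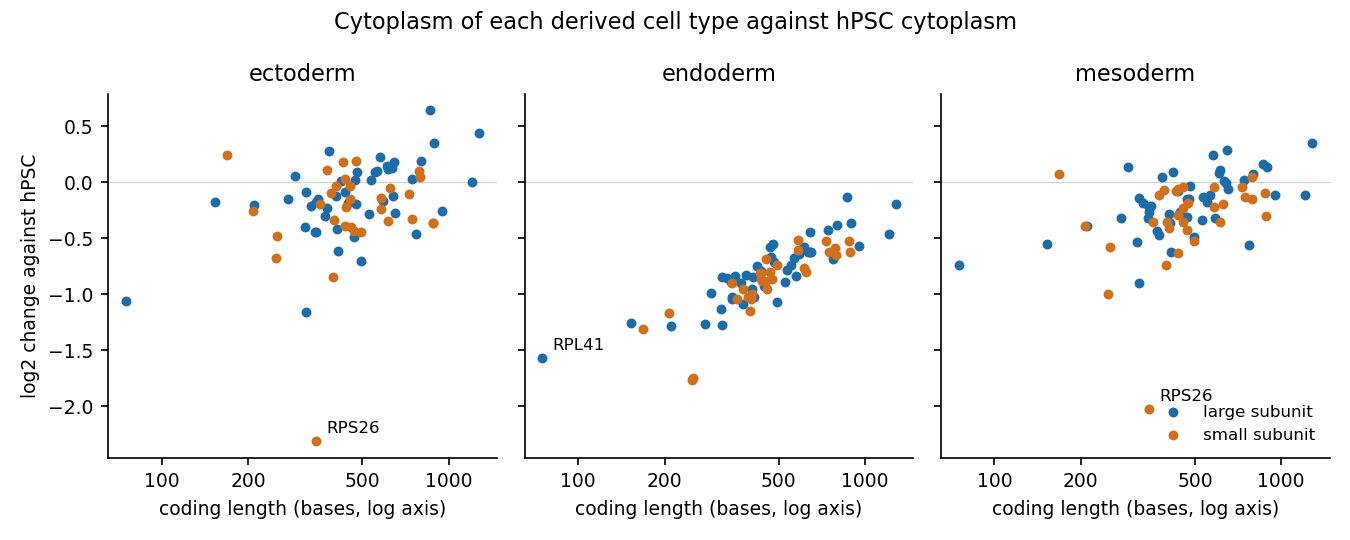
Log2 change of each ribosomal protein gene in cytoplasm against hPSC (y axis) by coding length in bases (x axis, log scale), for ectoderm, endoderm and mesoderm; points are genes, coloured by subunit. In endoderm the 20 shortest genes have a median of -1.09 and the 21 longest one of -0.58, while in ectoderm and mesoderm RPS26 lies alone below the rest.

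On chromatin, all 78 genes were lower in endoderm than in hPSC, against 61.9% of 10669 genes called, 33% lower, and the median was -1.69 with -0.071 over all genes. RPL32 was at 114, 95.8 and 89.5 scaled CPM in endoderm and 437, 460.2 and 410.0 in hPSC, a log2 change of -2.13 (SE 0.24, adjusted p = 6e-06). RPS3A changed by -2.12 (SE 0.25, adjusted p = 1.03e-05). In mesoderm 73 genes were lower and none higher, against 54.6% called, 27.5% lower, with a median of -1.24 and -0.028 over all genes. RPS29 at -2.05 (SE 0.36, adjusted p = 0.000279), RPL38 at -1.74 (SE 0.38, adjusted p = 0.00148) and RPL35 at -1.69 (SE 0.24, adjusted p = 5.44e-05) fell most there. On the log2 TPM scale RPL38 stood at 0.37 (adjusted p = 0.434 in limma).

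In ectoderm chromatin 16 genes were lower and 1 higher, against 62.9% of all genes called, 32.4% lower, with a median of -0.43. Scaled by total counts, 10 were lower and 1 higher. Besides RPS26, RPL36AL at -1.39 (SE 0.35, adjusted p = 0.00345) and RPL6 at -1.22 (SE 0.27, adjusted p = 0.00143) fell most. RPL6 thus stood below hPSC on ectoderm chromatin and above it in ectoderm cytoplasm, and so did RPL4 (-1.11 on chromatin) and RPL5 (-1.03 on chromatin, 0.35 in cytoplasm). The cytoplasm call of RPL5 was lost without any 1 of the ectoderm libraries or without hPSC replicate 2 or 3 (0.23 without the last). RPL37A was the gene that rose, by 1.03 (SE 0.27, adjusted p = 0.0045), with 1067, 1131 and 1033 scaled CPM in ectoderm and 515, 592 and 479 in hPSC. On ectoderm chromatin 35.3% of its counts were on rows with an Ensembl transcript ID, and in hPSC 100% were, and the rest of its ectoderm counts lay on transcripts without such an ID. On the log2 TPM scale its change was -0.037 (adjusted p = 0.935 in limma). In 64 of the 78 members over 99% of counts were on such listed rows in every group.

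By subunit, the hPSC cytoplasm to nucleus medians were 1.67 for the large (SD over genes 0.48) and 1.73 for the small subunit genes (SD 0.41). The SD over all 78 members ran from 0.25 to 0.56 log2 units over the comparisons, and the SD over all genes tested from 0.64 to 1.60. Per gene, the mean log2(TPM + 1) of the large subunit minus that of the small subunit was negative in every group. Its group means ran from -0.59 in hPSC nucleus to -0.23 in mesoderm chromatin. Sums of TPM run over 47 large and 31 small subunit genes, so their ratio does not compare levels per gene. Summed TPM of the large subunit over that of the small subunit gave a log2 ratio of 0.034 ± 0.068 (SD, n = 3) in hPSC cytoplasm, the lowest group. It was 0.39 ± 0.053 in mesoderm chromatin, the highest. These 2 groups did not overlap, and no test was made of the ratio. Within hPSC the nucleus was at 0.067 ± 0.032 and chromatin at 0.18 ± 0.045. In mesoderm the cytoplasm was at 0.21 ± 0.043 and the nucleus at 0.36 ± 0.01, without overlap. On summed counts the mesoderm means were 0.67 and 0.95, also without overlap. By the mean per gene they were -0.27 and -0.25, and the libraries overlapped, so the gap depends on the measure. TPM levels between cell types also change with the assembly.

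**Figure D5:**
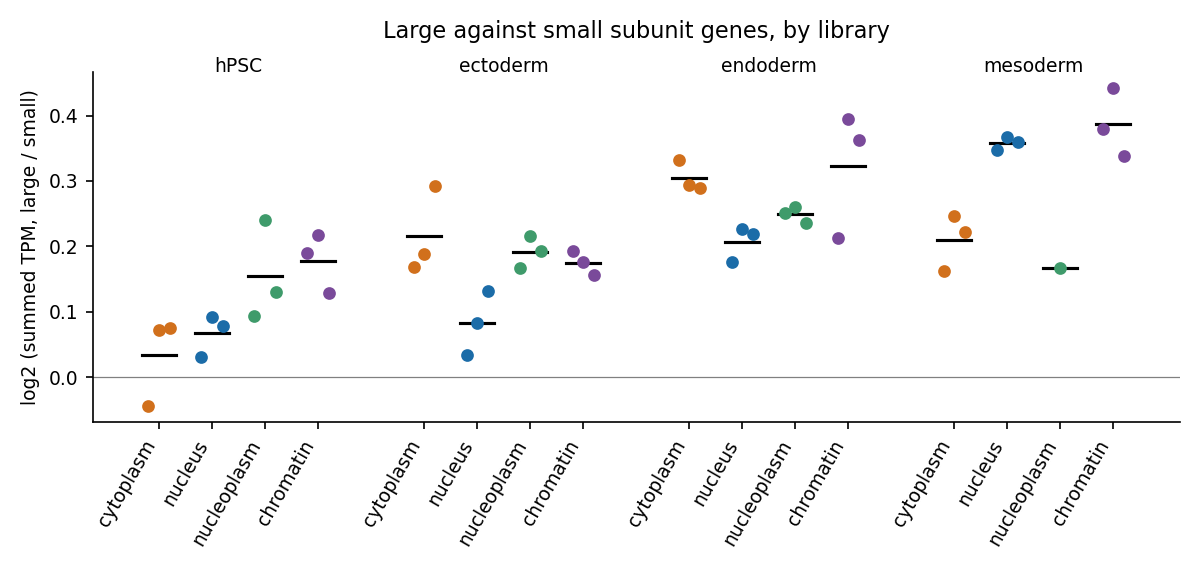
Log2 ratio of summed TPM of the 47 large subunit genes over the 31 small subunit genes (y axis) by cell type and fraction (x axis); each point is 1 library and each bar a group mean. The group means lie between 0.034 in hPSC cytoplasm and 0.39 in mesoderm chromatin, and mesoderm nucleus lies above mesoderm cytoplasm. By the mean per gene, not drawn here, the mesoderm nucleus and cytoplasm libraries overlapped.

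The stalk proteins, which help to recruit elongation factors, are RPLP0, RPLP1 and RPLP2. Their log2 changes between cytoplasm and nucleus were, for RPLP0, 1.56 (hPSC), -0.69 (ectoderm), 0.79 (endoderm) and 3.20 (mesoderm), the lowest of all 78 members in ectoderm. For RPLP1 they were 1.17 (hPSC), -0.42 (ectoderm, not called), 0.66 (endoderm) and 3.15 (mesoderm), and for RPLP2 1.80 (hPSC), -0.22 (ectoderm, not called), 0.92 (endoderm) and 3.57 (mesoderm). The endoderm call of RPLP1 was lost without nucleus replicate 2 or 3 or cytoplasm replicate 3 (0.49 to 0.60). The pair that binds the small ribosomal RNA of the large subunit and can hold back MDM2 when free is RPL5 and RPL11. RPL5 was at 0.88 (hPSC), 0.17 (ectoderm, not called), 1.23 (endoderm) and 1.48 (mesoderm), and RPL11 at 2.50 (hPSC), 0.43 (ectoderm, not called), 1.90 (endoderm) and 3.45 (mesoderm). The difference between these 2 genes was not tested.

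RPS27A, made as a fusion with ubiquitin, was at 2.31 (hPSC), 0.88 (ectoderm), 2.13 (endoderm) and 2.74 (mesoderm). Of the near-identical pair, RPL36A was at 2.51 (hPSC), 0.57 (ectoderm, not called), 1.91 (endoderm) and 3.37 (mesoderm), and RPL36AL at 2.49 (hPSC), 1.01 (ectoderm), 2.59 (endoderm) and 3.15 (mesoderm). RPL36A had a mean of 1305 ± 536 TPM (SD, n = 3) in hPSC cytoplasm and RPL36AL 473 ± 115, and in mesoderm cytoplasm the means were 4756 ± 872 and 497 ± 31.7. RPL36A was the higher of the pair in both, and its mean TPM in mesoderm was above that in hPSC. Against hPSC cytoplasm, RPL36AL changed by -1.15 (SE 0.24, adjusted p = 0.000471) in ectoderm and -0.89 (SE 0.24, adjusted p = 0.00398) in mesoderm, while RPL36A changed by -0.089 and -0.14 on scaled counts, neither called. On the log2 TPM scale RPL36A changed by 1.92 in mesoderm (adjusted p = 4.2e-08 in limma) and RPL36AL by 0.096, so the direction of this pair depends on the scale.

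The X-linked genes RPS4X, RPL10 and RPL39 rose in cytoplasm against nucleus in hPSC, endoderm and mesoderm. So did RPL36A, also on the X chromosome and given above. This was no trait of X-linked genes, as all 78 members were called higher in hPSC and mesoderm and 73 in endoderm. RPL10, which joins the large subunit late in assembly, was at 1.41 (hPSC), -0.34 (ectoderm, not called), 0.88 (endoderm) and 3.09 (mesoderm). RPS4X was at 1.88 (hPSC), 0.14 (ectoderm, not called), 1.66 (endoderm) and 2.83 (mesoderm), and RPL39, in the exit tunnel, at 2.35 (hPSC), 0.13 (ectoderm, not called), 1.28 (endoderm) and 3.99 (mesoderm).

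Of the small subunit, RPS6, which is phosphorylated in response to growth signals, was at 1.83 (hPSC), -0.05 (ectoderm, not called), 1.88 (endoderm) and 3.02 (mesoderm), and RPS3 at the mRNA entry at 1.27 (hPSC), -0.38 (ectoderm, not called), 0.78 (endoderm) and 2.60 (mesoderm). RPS19, the gene most often mutated in Diamond-Blackfan anaemia, was at 1.57 (hPSC), -0.45 (ectoderm, not called), 0.79 (endoderm) and 3.19 (mesoderm). RPS24 was at 2.18 (hPSC), 1.27 (ectoderm), 2.73 (endoderm) and 2.75 (mesoderm), and RPSA at 1.39 (hPSC), -0.52 (ectoderm), 0.93 (endoderm) and 2.86 (mesoderm). The ectoderm call of RPSA was lost without nucleus replicate 2 (-0.14) or any 1 cytoplasm library. Of the large subunit, RPL3 near the peptidyl transferase centre was at 1.34 (hPSC), -0.28 (ectoderm, not called), 1.11 (endoderm) and 2.35 (mesoderm), and RPL13A at 1.25 (hPSC), -0.39 (ectoderm, not called), 0.90 (endoderm) and 2.82 (mesoderm). RPL22 was at 2.10 (hPSC), 0.48 (ectoderm), 2.22 (endoderm) and 3.29 (mesoderm), where the ectoderm call was lost without cytoplasm replicate 3 (0.38). RPL41 was at 2.37 (hPSC), -0.036 (ectoderm, not called), 0.94 (endoderm) and 3.44 (mesoderm).

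Other genes of the pathway were counted from 3 lists. Medians are of log2 changes. Among all genes tested between cytoplasm and nucleus, 35.6% were called higher and 30.1% lower (hPSC), 28.8% and 24.8% (ectoderm), 34.4% and 35.6% (endoderm), and 32.1% and 31.2% (mesoderm). Against hPSC cytoplasm the shares were 38% and 37.9% in ectoderm, 29.5% and 28.6% in endoderm, and 34.6% and 33.4% in mesoderm. Of 20 further mRNAs of the TOP class, such as EEF1A1, EEF2, TPT1 and PABPC1, 16 were higher and 0 lower (median 1.31) in cytoplasm than in nucleus in hPSC. In ectoderm 5 were higher and 3 lower (median -0.21), in endoderm 17 were higher and 0 lower (median 1.15), and in mesoderm 19 were higher and 0 lower (median 2.20). Against hPSC cytoplasm, 1 was higher and 6 lower (median -0.18) in endoderm, 10 were higher and 5 lower (median 0.32) in ectoderm, and 10 were higher and 3 lower (median 0.35) in mesoderm. The ribosomal protein medians in the same order were -0.82, -0.16 and -0.19.

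Ribosome assembly factors, such as FBL, NCL and NOP56, were mostly lower than in hPSC cytoplasm. Of 33 tested, 0 were higher and 29 lower (median -1.44) in ectoderm, 1 was higher and 31 lower (median -0.98) in mesoderm, and 0 were higher and 23 lower (median -0.43) in endoderm. Of 34 tested between cytoplasm and nucleus, 22 were higher and 5 lower (median 0.76) in hPSC, 12 were higher and 15 lower (median -0.034) in ectoderm, and 11 were higher and 11 lower (median 0.21) in mesoderm. Of 33 in endoderm, 18 were higher and 8 lower (median 0.78). Of 10 genes for fused ribosomal proteins or paralogs, among them FAU, RPL22L1 and RPS27L, 8 were tested. Between cytoplasm and nucleus 8 were higher and 0 lower (median 1.21) in hPSC, 2 were higher and 1 lower (median 0.02) in ectoderm, 7 were higher and 0 lower (median 1.13) in endoderm, and 8 were higher and 0 lower (median 1.99) in mesoderm. Against hPSC cytoplasm 0 were higher and 6 lower (median -0.75) in ectoderm, 1 was higher and 5 lower (median -0.73) in endoderm, and 0 were higher and 5 lower (median -0.83) in mesoderm. A list of 27 members known to hold small nucleolar RNAs in their introns had a median of 1.63 between cytoplasm and nucleus in hPSC, where all 78 members had 1.70.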

How the data were processed

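RNA from 46 libraries was sequenced after subcellular fractionation. Per the submitters' processing notes, STAR, RSEM and hg38 were used. The authors deposited transcript count tables and TPM tables, 1 of each for each of the 4 cell-type assemblies and for a combined assembly. The deposited counts are whole numbers, and how they were rounded is not given in the sources used here. The authors' TPM values were used for levels and for limma on log2(TPM + 1). Here transcript rows were summed per Ensembl gene, and rows without one, 0.277% to 9.60% of the counts, stayed out of library sizes and tests. 1 column of per-sample values matched no sample and was not used. Columns named Nei were read as nucleus.

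The main test was edgeR 4.0.16 (quasi-likelihood, TMM, filterByExpr with a minimum count of 10) in R 4.3.3. Comparisons within a cell type used its own 4 fractions, and those between cell types all 4 cell types of a fraction. Comparisons between cell types, also those of the differences, used only genes present in all 4 cell-type assemblies. Library sizes were sums over the genes kept in each fit. Genes were called at an adjusted p under 0.05. SE is the log2 change over the root of F. Alternatives were DESeq2 1.42.0, limma 3.58.1, other scalings and filters, the replicate block and each library left out, and the pseudogene rows were added after seeing the data. Scripts were tested on simulated data. Totals of 4990408 to 21298678 counts set the precision of low genes, and no 2 replicates were identical. Genes were named by rule, as up to 3 rises and 3 falls per comparison whose libraries did not overlap, those listed by role, and the 3 highest and lowest by TPM. For the cytoplasm to nucleus differences compared between cell types, the largest called rises and falls were taken without regard to overlap. Values of some members that the rule names are not reported here. The members and lists were chosen with earlier results of these data known.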

Additional observations from a re-analysis of the deposited data

Results flagged for a closer look

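The difference between cytoplasm and nucleus was not the same in every cell type, by a test of that difference itself in edgeR's quasi-likelihood fit with Benjamini-Hochberg adjustment. It differed from hPSC for 75 members in ectoderm, where 51.9% of all genes were called, for 62 in mesoderm (25.6% of all genes) and for 5 in endoderm (38%). In ectoderm the log2 difference of RPS27 was -2.67, that of RPS12 -2.44 and that of RPS28 -2.35. In mesoderm RPS29 was at 2.94, RPL37 at 2.08 and RPLP1 at 2.07. In endoderm RPS21 was at -1.73, RPS28 at -1.36, RPL41 at -1.32 and RPL7 at 0.77, and each of these endoderm calls was lost when some single libraries were left out.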

How the results depend on the processing

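Alternatives were another scaling (total counts, TMM without the members), DESeq2, no filter, limma on log2(TPM + 1), the combined assembly, the replicate block, pseudogene rows added, and each library left out. Of the recomputed counts of called members and subunit ratios, 196 stayed close, 25 moved and 9 changed majority. A change of majority was counted only where neither the main nor the alternative fit was tied. The main fit of ectoderm cytoplasm against nucleus was tied, at 8 higher and 8 lower, so a majority in its alternatives was not counted as a change. On hPSC chromatin against nucleoplasm the total counts gave a tie of 3 and 3, which was counted as close. With limma on TPM the counts became 27 for hPSC chromatin against nucleoplasm (median 0.39), 6 in ectoderm and 26 in endoderm for that contrast, 26, 30 and 15 in ectoderm, endoderm and mesoderm cytoplasm against hPSC, and 17 (median 0.38) and 40 for the endoderm and mesoderm differences between cytoplasm and nucleus. With total counts they became 27 (ectoderm cytoplasm against nucleus), 29 (endoderm chromatin), 11 (ectoderm chromatin against hPSC) and 7 (endoderm difference, median 0.17). With DESeq2 they became 26 (ectoderm cytoplasm against nucleus) and 9 (endoderm difference). Leaving out 1 library at a time gave 76 to 78, 8 to 36, 68 to 77 and 78 called members for cytoplasm against nucleus in hPSC, ectoderm, endoderm and mesoderm. It gave 5 to 9, 58 to 69 and 56 to 67 for chromatin against nucleoplasm in the first 3. Against hPSC, for ectoderm, endoderm and mesoderm, it gave 7 to 25, 58 to 76 and 6 to 24 in cytoplasm, 12 to 25, 77 to 78 and 63 to 76 on chromatin, and 71 to 77, 1 to 10 and 53 to 76 for the difference. The majority changed without hPSC cytoplasm replicate 1 in ectoderm (21), mesoderm (12) and the endoderm difference (4), and without hPSC nucleoplasm replicate 2 on hPSC chromatin (5). Named genes changed direction mostly on the TPM scale, to 0.57 (RPSA), 0.50 (RPLP0) and 0.44 (RPL3) on hPSC chromatin against nucleoplasm, and 0.088 (RPL5), 0.10 (RPS19) and 0.0058 (RPL10) in ectoderm. In ectoderm cytoplasm against hPSC RPL22 became -0.62, RPL11 -0.49 and RPS3 0.61. In endoderm cytoplasm RPL10 became 0.025, RPL36AL 0.38 and RPL36A 1.10. In mesoderm cytoplasm RPL22 became -0.95, RPS6 1.13, RPL36A 1.92 and RPL36AL 0.096. On chromatin against hPSC RPL22 became -0.74 and RPL37A -0.037 in ectoderm, and RPL36A 1.13, RPS6 0.26 and RPL38 0.37 in mesoderm. In the differences RPS4X became 0.54 (endoderm) and RPL5 -0.10 (mesoderm). With total counts RPS6 became 0.32 (ectoderm cytoplasm against nucleus) and RPL5 0.37 (endoderm chromatin against nucleoplasm), and without hPSC cytoplasm replicate 1 RPS19 became 0.34 in mesoderm cytoplasm (from -0.27 without replicate 3). The cause of these changes was not tested. The range of the subunit log2 ratio over groups was 0.44 on counts, against 0.35 on TPM. Same-numbered libraries deviated together with correlations of -0.39 to 0.42 over 13 comparisons, and 0 of them had every correlation over 0.1, so the labels' replicate numbers were taken as numbers only. Both ends of that range are from comparisons between cell types. Within a cell type the range was -0.38 to 0.22. All 3 ectoderm chromatin libraries correlated best with the nucleoplasm library of their own number (0.041 to 0.088), and in endoderm none did in either comparison. The fit with the replicate block gave 3 called members for the endoderm difference and moved no other count of called members by over 1.5 times.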
